A study of Drosophila melanogaster with 3 samples.

Results

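The Agilent array of this study carried 32162 non-control probes for the fruit fly Drosophila melanogaster. Of these, 11589 (36.0%) bore the name of a cDNA clone, an expressed sequence tag (EST), an assembled EST consensus or another GenBank record in place of a CG gene number or a RefSeq transcript. They were chosen by name alone, as every probe whose name did not begin with CG or CR and digits, or with NM_ or NR_, and are called cDNA/EST probes here. They were set against 20026 probes named for CG genes, the numbered gene models of the fly genome. The other 547 probes had the remaining names that the rule left out (CR and digits, NM_ or NR_). The 11589 probes held 11112 names, of which 430 had more than 1 probe and none more than 4.

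RNA came from wild-type flies of the OreR laboratory strain in 3 tissues. These were testis apical tips freed of the testis sheath, from males of 2 to 4 days, and thoraxes of adult males and of adult females with head, abdomen, legs and wings removed. Each tissue was measured on 4 one-colour arrays (Cy3), each with its own pool of RNA, giving 12 arrays on 3 slides called A, B and C here. The arrays carried no replicate numbers, so the replicate numbers used here only name arrays, and the p-values measure the spread between these arrays.

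An EST is a short read from the end of a cDNA, which is itself a copy of an RNA made in a known tissue. A clone named in the Drosophila cDNA collections carries its library in its first letters: AT for adult testis, GH, HL and RH for adult head, GM for ovary, LD and RE for embryo, LP for larva and pupa, and SD for the Schneider cell line. The apical tip of the testis holds the germline stem cells, spermatogonia and early spermatocytes, whereas the thorax consists mostly of flight muscle. Probes named for cDNAs may lie within, beside or far from annotated genes. The positions of these probes are not analysed here, and only 8 of them (7 clone names) matched a gene through a clone synonym in the RefSeq annotation.

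The tissues carried most of their known markers, but many of these were detected in the other tissues too, and some were higher there. Of 10 germline genes 9 had a probe, and 8 of these were well above background on all 4 testis arrays, against 2 on all 4 male and 2 on all 4 female thorax arrays. Only zpg had a lower mean in testis (8.22) than in male (8.35) and female thorax (8.76). All 7 genes of late spermatids, whose RNA is made in spermatocytes, were on all 4 testis arrays, with mean scaled log2 signals of 15.57 to 16.36. Of these, 2 were on all 4 male and 1 on all 4 female thorax arrays. The 10 flight muscle genes were on all thorax arrays, and 8 of 10 were also on all 4 testis arrays, with means of up to 10.90. All 4 accessory gland genes were on all 4 testis arrays as well (means of 7.23 to 12.17), against 1 on all 4 arrays of either thorax. Of 6 somatic cyst and hub genes 5 were on all 4 testis arrays and 3 on all 4 arrays of either thorax. Among them eya, upd1 and piwi had their highest means in testis, and zfh1 was near even. Means were lower in testis for tj (6.14, against 6.51 in male and 7.82 in female thorax) and Fas3 (9.34, against 10.59 and 10.74). Of 4 neuronal genes 2 were on all 4 testis arrays and 4 on all thorax arrays. Only brp of the 4 had its highest mean in testis (14.05). Of 5 fat body genes 2 were on all testis arrays and 5 on all thorax arrays. The part of these other cell types in the results was not tested. Here "well above background" is the scanner software's own call on a spot, and a scaled log2 signal is log2 intensity moved so that all arrays had a common 75th percentile, the mean over the 12 arrays.

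Some arrays stood apart. Testis replicate 1 correlated with the other testis arrays at r = 0.823 to 0.825 over cDNA/EST probes, whereas the other testis arrays correlated with each other at 0.981 to 0.992. Male thorax replicate 3 had signal for nearly every probe that was bright in testis. There were 474 cDNA/EST probes with a mean scaled log2 of 14 or more in testis, of which male thorax replicate 3 detected 99.2%, against 51.9%, 54.8% and 68.1% on male thorax replicates 1, 2 and 4 and 52.0% to 60.5% on the female thorax arrays. The 2854 CG probes of the same brightness in testis gave 99.7% on male thorax replicate 3, and 71.9%, 73.6% and 85.6% on male thorax replicates 1, 2 and 4. Male thorax replicate 3 shared slide B with testis replicates 1 and 2 and with male thorax replicate 4. The part of this signal in the results was not tested, and several of the results that rest on either array are given with and without it.

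**Figure D1:**
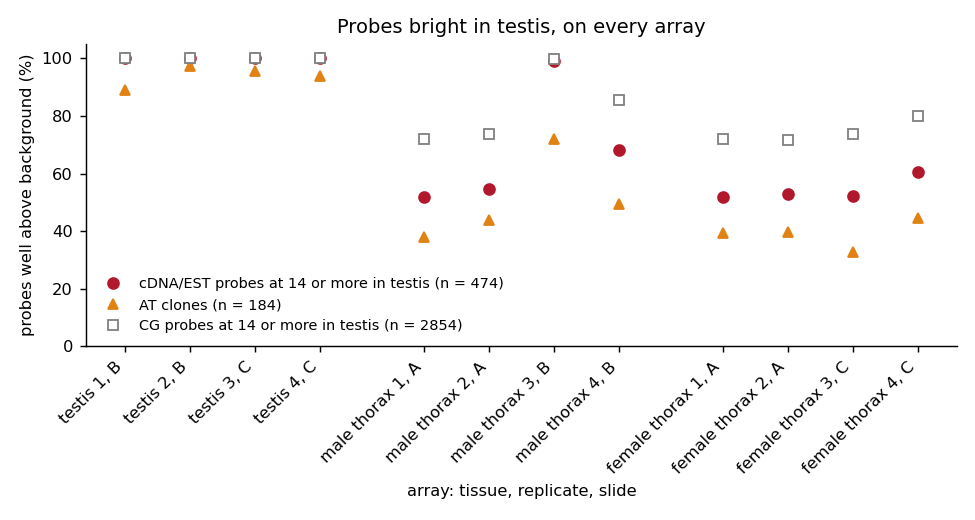
Share of probes called well above background (y axis, percent) on each of the 12 arrays (x axis, with tissue, replicate and slide) for cDNA/EST probes at a mean scaled log2 of 14 or more in testis (red circles), AT clones (orange triangles) and CG probes at 14 or more in testis (open squares). Male thorax replicate 3, on slide B, reached 99.2% for the first set, and the other thorax arrays stayed between 51.9% and 68.1%.

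The first comparison asked how often cDNA/EST probes were detected, relative to CG probes, in each tissue. On all 4 arrays of the tissue, 3548 cDNA/EST probes (30.6%) were well above background in testis, 5754 (49.7%) in male thorax and 5186 (44.7%) in female thorax. CG probes reached 64.1% in testis, 74.7% in male thorax and 71.4% in female thorax. Testis was thus the tissue with the fewest cDNA/EST probes detected, and 4864 (42.0%) were detected on none of its arrays, against 3632 (31.3%) in male thorax and 4126 (35.6%) in female thorax. CG probes detected on no array of a tissue made up 11.8% in testis, 10.4% in male thorax and 15.7% in female thorax. Without testis replicate 1 the share on all remaining testis arrays, a looser rule, was 42.9% for cDNA/EST probes. For CG probes it was 78.7%, above their share in either thorax. A spot left out as an outlier counted as not detected in these counts, and 481 cDNA/EST probes lacked a spot on at least 1 array.

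Array by array, cDNA/EST probes were detected at 37.6%, 55.5%, 48.0% and 43.7% on the testis arrays. The male thorax arrays gave 56.7%, 59.4%, 58.9% and 59.6%, and the female thorax arrays 54.0%, 56.0%, 48.5% and 59.2%. All testis arrays lay below all male thorax arrays, and they overlapped the female thorax arrays. CG probes of the same array were set beside them, which does not remove a shift in the detection limit. The share of cDNA/EST probes minus the share of CG probes was -33.1 ± 2.15 percentage points in testis, -23.1 ± 1.31 in male thorax and -23.6 ± 1.64 in female thorax (SD, n = 4 arrays each).

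**Figure D2:**
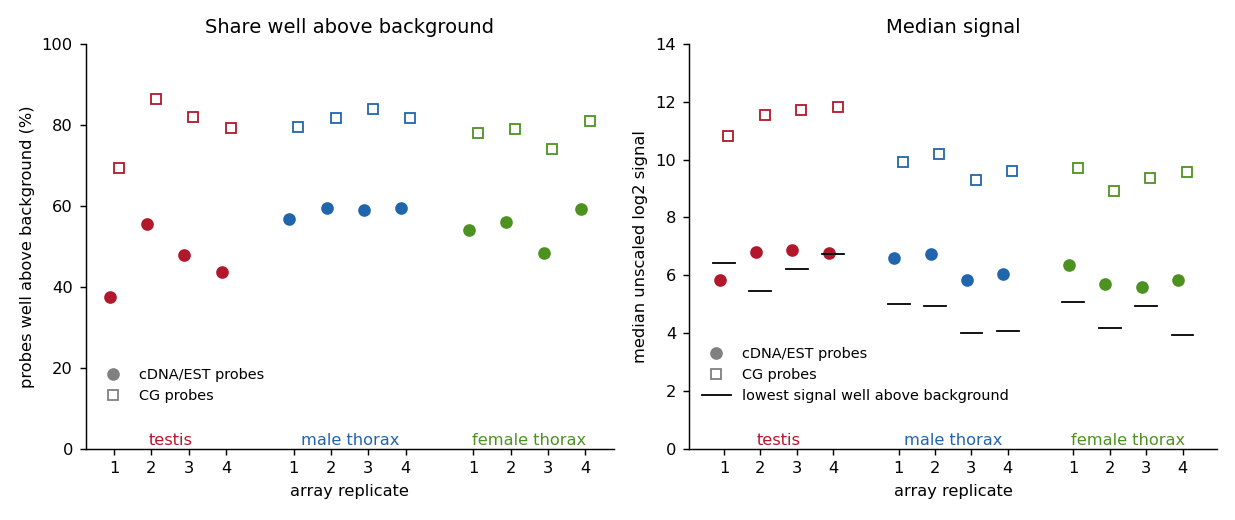
Left, share of cDNA/EST probes (filled circles) and CG probes (open squares) called well above background on each array (y axis, percent; x axis, array replicate, by tissue). Right, median unscaled log2 signal of the same sets, with a black bar at the lowest signal called well above background on that array; the cDNA/EST median lay near that bar in testis (6.58 on average, against 6.21) and above it in male thorax (6.29, against 4.51).

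The gap between the probe sets was wider in testis than in either thorax. The difference from male thorax was -9.97 percentage points (exact permutation test over arrays, two-sided, p = 0.0286, 0.0429 after Benjamini-Hochberg adjustment over 3 comparisons). The difference from female thorax was -9.43 points (exact permutation test, p = 0.0286, adjusted 0.0429). In both comparisons the arrays of the tissues did not overlap, and 0.0286 is the smallest p that 4 arrays against 4 allow. Male and female thorax differed by 0.54 points (exact permutation test, p = 0.629), and their arrays overlapped.

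The same held for signal. The median unscaled log2 of cDNA/EST probes minus that of CG probes was -4.90 ± 0.14 in testis, -3.46 ± 0.10 in male thorax and -3.52 ± 0.27 in female thorax (SD, n = 4 arrays each). Testis differed from male thorax by -1.43 and from female thorax by -1.37 (exact permutation test, p = 0.0286 and adjusted p = 0.0429 for each), with no overlap between arrays. Male thorax differed from female thorax by 0.06 (exact permutation test, p = 0.686).

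**Figure D3:**
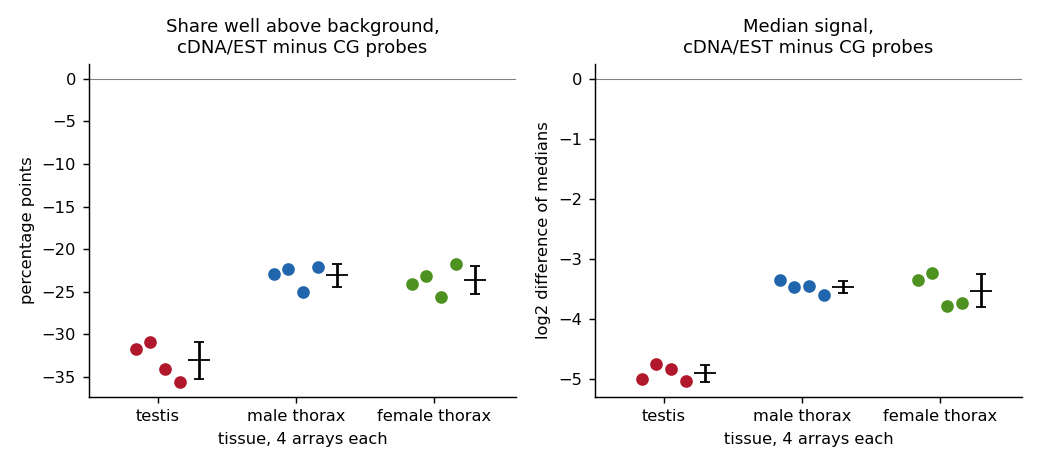
Difference between cDNA/EST and CG probes on each array (points), in the share well above background (left, percentage points) and in median log2 signal (right), with the mean and SD of the 4 arrays of each tissue. The testis arrays lie at -30.9 to -35.6 points and the male thorax arrays at -22.1 to -25.0.

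How far each set moved depended on the scale. Unscaled, the cDNA/EST medians averaged 6.58 ± 0.49 in testis and 6.29 ± 0.43 in male thorax, whereas the CG medians averaged 11.47 ± 0.44 in testis and 9.76 ± 0.39 in male thorax (SD, n = 4 arrays each). Scaled, the cDNA/EST medians averaged 4.91 in testis and 6.97 in male thorax, and the CG medians 9.81 in testis and 10.44 in male thorax. The lowest signal called well above background was also higher in testis, at 5.44 to 6.73, than in male thorax at 4.00 to 5.02 and female thorax at 3.95 to 5.09. The median cDNA/EST probe thus lay near the limit of detection in testis, and the part of this limit in the shares was not tested. With a fixed unscaled log2 signal of 7 in place of the call, chosen after seeing the data, the gap in testis differed by -5.23 points from male thorax and by -4.83 from female thorax (exact permutation test, p = 0.0286 each). Every cDNA/EST probe had a single spot, whereas 9836 CG probes had more. Against the 10190 CG probes with a single spot, also chosen after seeing the data, the gap differed by -7.12 points from male thorax (exact permutation test, p = 0.0857) and by -6.66 from female thorax (exact permutation test, p = 0.114), so the call on the share was lost. The median gap from female thorax lost its call too, at -0.98 (exact permutation test, p = 0.0857).

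The detected probes were then sorted by tissue pattern. cDNA/EST probes were detected on all 12 arrays in 2499 cases (21.6%) and on none in 2419 (20.9%), whereas CG probes were detected on all in 51.8% and on none in 3.87%. There were 903 cDNA/EST probes (7.79%) on all 8 thorax arrays and no testis array, against 733 CG probes (3.66%). Only 328 (2.83%) were on all 4 testis arrays and no thorax array, against 440 CG probes (2.20%). When an array is left out this last count can only stay or grow, and only the arrays that stood apart were left out. Without male thorax replicate 3 it grew to 488 cDNA/EST probes (4.21%), against 924 CG probes (4.61%), and the order of the shares turned round. Without testis replicate 1 it grew to 537 cDNA/EST probes (4.63%), against 712 CG probes (3.56%). A further 1657 cDNA/EST probes were on all 8 thorax arrays and some testis arrays, and 674 without testis replicate 1. This count can only stay or fall when a testis array is left out.

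The kind of name went with the tissue. Among 32 name prefixes with at least 20 probes, the share detected on all 4 testis arrays ran between 6.67% and 86.4%, and it exceeded the male thorax share in 4 of them, the AT, BT, BE and BF names. With testis replicate 1 left out of the testis share only, a looser rule than for male thorax, it did so in 6. AI (50.3% in testis, against 43.5% in male thorax) and EL (37.6%, against 31.2%) were added. Averaged over all 4 single arrays, AI had 52.1% in testis and 53.8% in male thorax. EL had 40.3% and 42.3%. Probes of 1 library share their source and are not replicates, so these shares carry no test.

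Clones of the adult testis library (AT) had the highest testis share. Of 184 probes, 86.4% were detected on all 4 testis arrays, against 34.2% in male thorax and 28.3% in female thorax. Their median scaled log2 signal was 13.52 in testis, 5.73 in male thorax and 5.10 in female thorax. On single arrays the AT share was 89.0% to 97.3% in testis, 72.1% on male thorax replicate 3, 38.0% to 49.5% on the other male thorax arrays, and 32.8% to 44.6% in female thorax. The male thorax array that stood apart was the highest of the thorax arrays here too. AT clones on all testis arrays and no thorax array numbered 33 (17.9%), and 66 (35.9%) without male thorax replicate 3. Among the 474 cDNA/EST probes at 14 or more in testis, AT clones made up 15.4%, although they were 1.59% of all cDNA/EST probes.

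Clones of the adult head libraries were detected less in testis than in either thorax, as were cDNA/EST probes as a whole. Of 152 GH probes, 48.0% were on all 4 testis arrays, against 86.8% in male thorax and 82.2% in female thorax. There were 37 GH probes (24.3%) on all thorax arrays and no testis array. HL clones gave 35.9% in testis, against 84.6% in male thorax and 74.4% in female thorax (n = 39). RH clones gave 43.8% in testis, against 63.4% in male thorax and 58.0% in female thorax (n = 112). On all thorax arrays and no testis array were 23.1% of HL and 3.57% of RH clones, against 7.79% of all cDNA/EST probes.

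The clones of the ovary, embryo and Schneider cell libraries were also detected less in testis than in either thorax. Of 116 GM probes, 58 were on all 4 testis arrays, against 78.4% in male thorax and 76.7% in female thorax. RE clones gave 65.1% in testis, 77.6% in male thorax and 73.7% in female thorax (n = 152), and SD clones 62.1% in testis and 80.6% in either thorax (n = 103). Leaving out AT, the clones of the other 8 libraries were detected at 53.2% in testis, against 76.7% in male thorax and 72.6% in female thorax (n = 840).

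The EST consensus names, TC, made up 6122 (52.8%) of the cDNA/EST probes. On all 4 arrays, 23.2% were detected in testis, against 48.5% in male thorax and 42.6% in female thorax. On all testis arrays but replicate 1, a looser rule, the share was 37.1%. BT names, the full-length sequenced cDNAs, numbered 1184 and were near even, at 60.7% in testis, 55.4% in male thorax and 52.1% in female thorax. The BE names, GenBank EST records, had 64.3% in testis, against 28.6% in male thorax and 24.3% in female thorax (n = 70), and on single arrays up to 92.9% in testis and 31.4% to 48.6% over both thoraxes.

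**Figure D4:**
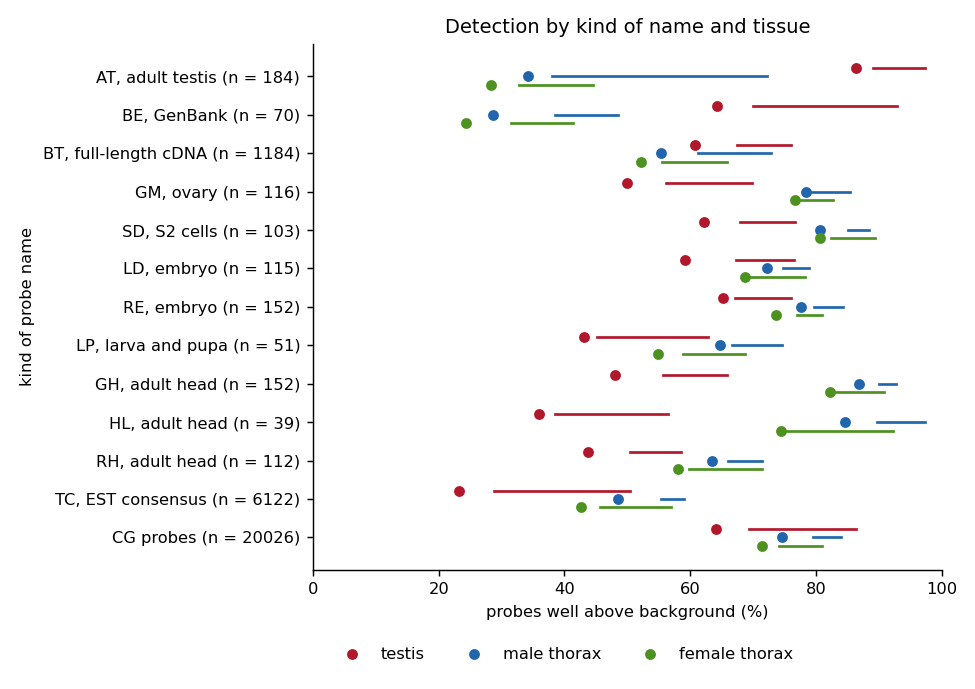
Share of probes well above background (x axis, percent) by kind of name (y axis, with the number of probes) in testis (red), male thorax (blue) and female thorax (green). Dots give the share detected on all 4 arrays of the tissue and lines the range of the share over single arrays; AT clones stand at 86.4% in testis and 34.2% in male thorax, and GH clones at 48.0% in testis and 86.8% in male thorax.

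To compare single probes, limma was fitted over all 24878 probes with a mean unscaled log2 of at least 7 in at least 1 tissue. Of these, 6840 were cDNA/EST probes (59.0% of them, against 88.6% of CG probes). The 75th percentile of unscaled log2 averaged 13.67 in testis, 11.32 in male thorax and 11.01 in female thorax. At a given scaled signal a probe thus passed this filter more easily through testis. Between testis and male thorax, 1523 cDNA/EST probes were higher in testis, against a background of 29.3% higher over all probes tested, and 3937 were lower, against a background of 47.2% (limma, Benjamini-Hochberg adjusted p under 0.05). These were 22.3% and 57.6% of the cDNA/EST probes tested. Their median log2 difference was -2.04, against -0.67 for CG probes and -1.05 for all probes. Between testis and female thorax, 1507 were higher and 3969 lower, with backgrounds of 28.8% and 47.4%, and the median was -2.12. Both comparisons share the 4 testis arrays. Without testis replicate 1, 1812 of 6839 cDNA/EST probes were higher and 4098 lower than in male thorax, against 8710 and 12702 of 24877 probes. Without male thorax replicate 3, 1440 of 6840 were higher and 3878 lower, against 7008 and 11487 of 24878. With no filter, 1541 of 11589 cDNA/EST probes were higher and 5949 lower than in male thorax, against 7276 and 14823 of 32162.

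The direction of these counts depended on the scaling. With no scaling, 2600 of 6840 cDNA/EST probes were higher and 2212 lower in testis than in male thorax. All 24878 probes gave 11980 higher and 6097 lower. The cDNA/EST median was 0.30, while the median of all probes was 1.29. Quantile normalization gave 1959 higher and 3288 lower, against 8584 and 10206 over all probes. The cDNA/EST median was then -1.05, against -0.36 for all probes. Under each scaling the cDNA/EST median lay below that of all probes. Of the 1523 probes higher in testis, 580 (38.1%) were detected on no male thorax array. Of the 3937 lower, 922 (23.4%) were detected on no testis array. The fitted differences of these probes rest on signals not called in the dimmer tissue. They are neither measured sizes nor lower bounds.

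By library, 148 of 178 AT clones tested were higher in testis than in male thorax and 16 were lower, with a median log2 difference of 7.10. Among GH clones 20 of 134 were higher and 95 lower, with a median of -3.52, and among HL clones none of 35 was higher and 32 were lower, with a median of -5.54. TC probes had 485 higher and 2084 lower of 3270, and BT probes 431 higher and 404 lower of 991, with a median of 0.11. Over all probes tested 29.3% were higher and 47.2% lower. These counts also moved with the scaling, compared by library after seeing the data. With none, 159 AT clones were higher and 3 lower, and 36 GH clones higher and 64 lower. TC probes had 972 higher and 1198 lower, and BT probes 591 higher and 222 lower. Over all 24878 probes tested, no scaling gave 11980 higher and 6097 lower. AT clones kept a median above 0 and GH, HL and TC names a median below 0 under 75th percentile scaling, quantile normalization and none.

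The named probes follow. They were ranked by fitted difference among names called by limma, not overlapping between arrays and detected on all 4 arrays of the brighter tissue. Where the dimmer tissue was mostly not detected, the order among them has no meaning. The 5 with the largest rise in testis against male thorax had testis means of 14.36 to 15.19. AT28542, a testis library clone, had scaled log2 signals of 15.05, 14.28, 14.24 and 14.08 on the testis arrays, against 4.16, 3.77 and 3.89 on male thorax replicates 1, 2 and 4 and 3.32 to 4.45 on the female thorax arrays. Its spot on male thorax replicate 3 was left out as an outlier. It was detected on all testis arrays and on no thorax array that measured it, and was at least 598-fold higher in testis than in male thorax (limma, adjusted p = 1.55e-09). This bound sets the testis mean against the lowest signal called well above background on each thorax array, or the probe's own signal where that is higher. For AT28542 on male thorax replicate 3 only the array's lowest called signal entered, as the probe was not measured there.

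AT27322, a second testis library clone, had 15.47, 15.00, 15.16 and 15.14 in testis, against 4.11, 3.73, 7.90 and 4.79 in male thorax and 4.41, 4.36, 7.90 and 4.99 in female thorax. The values of 7.90 lay on male thorax replicate 3 and female thorax replicate 3, and the probe was detected on these arrays only among the thorax arrays. It was called against male thorax (limma, adjusted p = 1.44e-06), with only 1 of the 4 male thorax arrays detecting it. CO194491, BT023591 and CO193075 averaged 14.36 to 14.43 in testis, and were called (limma, adjusted p of 2.40e-08 to 5.40e-08). Each was detected on 1 male thorax array, replicate 3, at 6.27 to 6.53, while the other male thorax arrays stood at 3.30 to 4.03.

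Against female thorax the largest rises were those of BT025132, TC217180, BT022355, BT022626 and TC213583, with testis means of 15.17 to 15.53. BT025132 had 15.68, 15.11, 15.24 and 15.02 in testis, against 4.36, 4.27, 4.35 and 3.38 in female thorax. None of the 5 was detected on a female thorax array, and they were at least 796- to 1022-fold higher in testis (limma, adjusted p of 5.75e-08 to 3.18e-07). In male thorax the 5 had 7.86 to 8.89 on replicate 3 and no more than 6.45 on the other arrays.

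The 5 names with the largest fall in testis against male thorax were TC217930, GH17893, TC220385, TC206826 and CO193140. TC217930, an EST consensus, had 3.20, 2.26, 2.93 and 3.29 in testis, against 17.11, 16.96, 16.79 and 16.65 in male thorax and 16.62, 16.51, 16.80 and 16.89 in female thorax. It was detected on no testis array and was at least 5181-fold lower in testis than in male thorax (limma, adjusted p = 5.71e-11). GH17893, an adult head clone, had 4.86, 2.27, 4.45 and 3.25 in testis, against 17.68, 17.57, 17.53 and 17.45 in male thorax and 18.21, 18.62, 17.93 and 17.73 in female thorax. It was at least 8182-fold lower than in male thorax and at least 12097-fold lower than in female thorax (adjusted p = 7.28e-10 and 6.15e-10). TC220385 and TC206826 were also on no testis array, and CO193140 was on 1, replicate 1 at 5.72.

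Against female thorax, BT023362 and GH08205 joined GH17893, TC217930 and TC220385 among the largest falls. BT023362, a sequenced cDNA, was detected on no testis array and differed between the sexes, with 12.62, 12.24, 14.60 and 14.58 in male thorax, against 17.66, 17.70, 18.29 and 18.12 in female thorax. It was at least 10132-fold lower in testis than in female thorax (limma, adjusted p = 4.75e-09). GH08205 had 10.69, 15.58, 16.30 and 13.73 in male thorax, a wider spread than the other names had, and 15.77 to 17.14 in female thorax.

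The brightest probes on 1 side only were chosen for that pattern, and several are named already. On all testis arrays and no thorax array they were CO191659, AT28542, CO194462, BT030198 and BT025822, with testis means of 14.10 to 14.65. CO191659 and AT28542 had no kept spot on male thorax replicate 3, which counted as not detected, so their detection there is unknown. CO194462, BT030198 and BT025822 had 5.97 to 6.13 on male thorax replicate 3, their highest thorax values, without reaching the call there. On all thorax arrays and no testis array they were GH17893, TC206826, TC217930, TC216110 and TC220385. TC216110 had 4.94, 3.62, 3.97 and 3.41 in testis, against 16.16 to 16.82 in male thorax and 16.84 to 17.00 in female thorax.

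**Figure D5:**
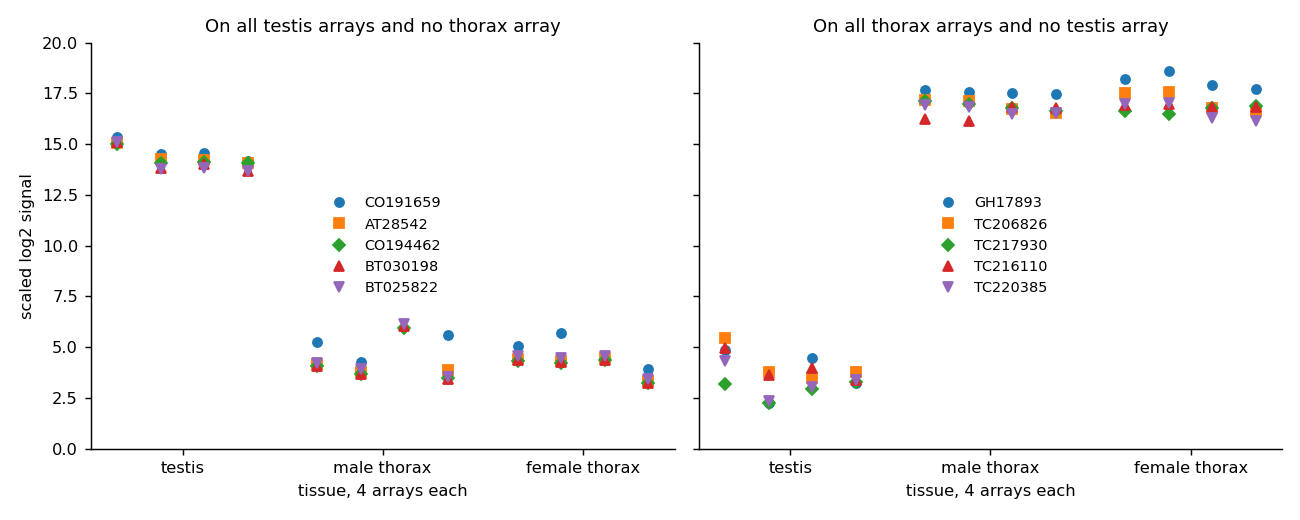
Scaled log2 signal (y axis) on each array (x axis, 4 arrays a tissue, replicates 1 to 4 left to right within a tissue) of the 5 brightest cDNA/EST probes found on all testis arrays and no thorax array (left) and on all thorax arrays and no testis array (right). The left set stands at 13.66 to 15.35 in testis and below 6.20 in the thoraxes; AT28542 and CO191659 have no point for male thorax replicate 3.

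The probes with the highest mean signal were mostly bright everywhere. LD48059, an embryo clone with 4 probes, had 16.05, 16.66, 16.83 and 16.82 in testis, against 18.79 to 19.30 in male thorax and 19.42 to 19.90 in female thorax. HL08087, a head clone, averaged 16.21 ± 0.73 in testis, 18.95 ± 0.23 in male thorax and 19.41 ± 0.23 in female thorax (SD, n = 4 arrays each). CO324084 averaged 16.11 ± 0.10 in testis, 18.64 ± 0.20 in male thorax and 18.98 ± 0.37 in female thorax. TC220507 and AI944989 were among the 5 brightest in testis but low elsewhere. TC220507 had 16.24 to 16.35 in testis, against 6.60, 6.17, 10.90 and 8.57 in male thorax and 6.64 to 8.86 in female thorax. AI944989, a GenBank EST record, had 16.30, 16.07, 16.03 and 15.84 in testis, against 5.02, 4.34, 9.64 and 7.12 in male thorax and 4.61 to 6.38 in female thorax, where it was detected on no array. TC220626, TC219271, TC199804, TC220924 and L02394 completed the brightest names in the thoraxes, with 18.44 to 19.06 on average there.

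Male and female thorax differed at few cDNA/EST probes. There were 14 higher in male thorax, against a background of 0.153% over all probes tested, and 30 lower, against a background of 0.37%, which were 0.205% and 0.439% of the cDNA/EST probes tested (limma, adjusted p under 0.05). Without testis replicate 1 there were 133 higher (1.94%, against 2.55% of all probes) and 163 lower (2.38%, against 2.69%). With array weights there were 214 higher (3.13%, against 4.61% of all probes) and 317 lower (4.63%, against 6.66%). The cDNA/EST share was thus above that of all probes in the first fit and below it in these. Testis replicate 1 is in neither tissue compared, but all 12 arrays shared 1 estimate of the spread.

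Higher in male thorax were 2 GenBank records, L42286 and L42288, that were also bright in testis. L42286 had 7.83, 8.89, 8.98 and 8.75 in male thorax, against 4.26, 4.14, 4.28 and 3.12 in female thorax, and 13.46, 12.16, 12.26 and 12.02 in testis. It was detected on no female thorax array and was at least 8.46-fold higher in male thorax (limma, adjusted p = 0.000169). L42288 had 2 probes. The brighter had 8.69, 9.42, 9.54 and 9.30 in male thorax, against 5.11, 6.02, 4.22 and 3.88 in female thorax, and was at least 12.3-fold higher in male thorax (adjusted p = 0.000775), and the other probe gave a log2 difference of 3.29. Both records were detected on all 4 male thorax arrays. The highest male value was on replicate 3 for L42286 (8.98) and the brighter L42288 probe (9.54). For the other L42288 probe it was on replicate 2 (7.72, against 7.62 on replicate 3). The part of the signal that set male thorax replicate 3 apart was not tested here.

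TC212513, TC214858 and TC211540 were higher in male thorax by 5.20 ± 0.71, 4.38 ± 0.24 and 4.01 ± 0.39 on the log2 scale (SE, adjusted p = 0.00537, 6.79e-06 and 0.000359). TC214858 had 12.81, 12.53, 13.05 and 13.22 in male thorax, against 8.33, 8.53, 8.56 and 8.66 in female thorax, and 6.48 to 7.25 in testis. TC212513 had 14.45 to 14.92 in male thorax, against 8.53 to 10.26 in female thorax, and the arrays of the sexes did not overlap for any of the 3.

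Higher in female thorax were BT023260, AT19228, LD23983, BT016133 and TC216424. BT023260 had 4.77, 3.86, 4.41 and 3.40 in male thorax, against 11.13, 13.53, 14.59 and 14.57 in female thorax, and was detected on 1 testis array. It was at least 308-fold lower in male thorax (limma, adjusted p = 0.00011). AT19228, a testis library clone, had 4.16, 3.83, 8.18 and 6.18 in male thorax, against 13.76, 11.76, 16.88 and 16.34 in female thorax, and 14.79 to 15.35 in testis. LD23983 had 3.99, 3.65, 3.65 and 3.97 in male thorax, against 15.20, 9.85, 11.32 and 14.88 in female thorax, and 12.17 to 13.40 in testis. These clones thus reached the testis level in female thorax, with a spread of several log2 units among the female arrays.

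BT016133 had 7.13, 7.28, 4.50 and 8.16 in male thorax, against 14.83, 14.81, 15.52 and 13.43 in female thorax. TC216424 was the steadiest of the 5, with 8.13, 8.26, 6.63 and 7.94 in male thorax, against 14.25, 13.91, 13.83 and 13.70 in female thorax (log2 difference -6.19 ± 0.35, SE, limma, adjusted p = 6.79e-06). Beside these values stand those of the yolk protein genes, secreted by fat body in females: Yp1, Yp2 and Yp3 had means of 6.95 to 9.63 in male thorax and 18.57 to 19.22 in female thorax. The other fat body genes listed differed less. Lsp2 had means of 14.69 in male and 16.40 in female thorax, and Fbp1 of 8.93 and 10.49. The part of fat body RNA in the female values was not tested.

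Where a name had several probes they mostly moved together. Of 239 names with at least 2 probes in the fit, the range of the log2 difference between testis and male thorax had a median of 0.68 over names and was under 1 in 154. Among 194 names with at least 2 probes called, all called probes went in 1 direction in 191.

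Of the 8 probes matched to a gene, 5 were in the fit. GH05739, matched to E(Pc), which encodes the chromatin protein Enhancer of Polycomb, had 2.29 to 5.02 in testis, against 9.23 to 9.57 in male thorax and 8.53 to 9.30 in female thorax, and was detected on no testis array. GM04742, matched to scribbler (sbb), averaged 7.91 ± 0.19 in testis, 12.19 ± 0.67 in male thorax and 11.48 ± 0.60 in female thorax (SD, n = 4 arrays each). Both GH05702 probes, matched to CG4757, were on all thorax arrays and no testis array. SD01674, matched to kekkon 1 (kek1), whose product binds the EGF receptor, had 8.84 to 10.57 in testis, against 10.21 to 10.81 in male thorax and 9.60 to 9.77 in female thorax. Its log2 difference was -1.12 ± 0.35 between testis and male thorax (SE, limma, adjusted p = 0.0122), near the median of -1.05 over all probes, and -0.29 ± 0.35 between testis and female thorax (adjusted p = 0.462).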

How the data were processed

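The 12 deposited array files hold scanner output of Agilent Feature Extraction (version 10.5.1.1 in the file headers, 9.1 in the submitters' processing notes). The deposited intensity of a spot was its background-corrected processed signal in Cy3, and the deposited calls (0 or 1) say whether it was well above background or positive and significant. A deposited summary of log2 tissue values, which the authors computed, held none of the cDNA/EST probes and was not used. Outlier spots were left out (112 to 389 of 43603 an array), spots of a probe were averaged, and log2 was taken. A probe was called on an array when at least 0.5 of its kept spots were. Signals were scaled to a common 75th percentile of log2 for probe levels and for limma (R 4.3.3, limma 3.58.1, Benjamini-Hochberg over all probes tested), with a filter at unscaled log2 of 7 in at least 1 tissue. Medians and shares of the probe sets were compared over arrays by exact permutation (Python 3.11.15, scipy 1.17.1). The number of arrays, 4 a tissue, limits the precision. Named probes were, for each limma comparison, the 5 with the largest rise and fall among called names whose arrays did not overlap and that were detected on all 4 arrays of the brighter tissue, the 5 brightest in each tissue, and the 5 brightest on 1 side only. The kek1, E(Pc), sbb and CG4757 probes were added because a reference gene matched them. The members, the marker lists and these rules were chosen with earlier results of these data known. Tests were checked on simulated data. Alternatives covered the call, comparator, scaling, background correction, filter, slide, array weights, 1 probe per name and each array left out.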

Additional observations from a re-analysis of the deposited data

Results flagged for a closer look

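In 144 groups of 4 arrays, 25 had an array far from the other 3 by Dixon's test, where chance flags about 1 in 20. Testis replicate 1 was the array in 13 of them, female thorax replicate 4 in 11 and male thorax replicate 3 in 1. The mean correlation of testis replicate 1 with the other testis arrays, 0.824 over cDNA/EST probes, was itself among them.

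Testis replicate 1 stood above the other testis arrays in scaled log2 signal for CO194462 (15.02), L42286 (13.46), BT025822 (15.09), TC206826 (5.44), TC213583 (15.68), TC211540 (10.97) and LD23983 (13.40). It stood below them for TC219271 (12.72), TC212513 (5.83), HL08087 (15.12), TC220626 (9.64) and TC220924 (12.59).

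Female thorax replicate 4 was the low array for probes not detected in female thorax: CO194462 (3.23), L42286 (3.12), BT030198 (3.24), BT023591 (3.14), BT025822 (3.45), BT025132 (3.38), AT28542 (3.32), BT022355 (3.31), TC213583 (3.40), CO193075 (3.20) and CO194491 (3.11). Male thorax replicate 3 was the high array for HL08087 (19.29).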

How the results depend on the processing

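The gap between cDNA/EST and CG probes kept its direction, testis against either thorax, in every alternative run. It lost its call in 2 settings. On the single slide shared with testis, where 2 arrays against 2 cannot go below p = 0.333 (exact permutation test), the share gap differed by -7.75 points from male thorax and -11.1 from female thorax, and the median gap by -1.35 and -1.18. Against CG probes with a single spot the share gap differed by -7.12 and -6.66 points (exact permutation test, p = 0.0857 and 0.114) and the median gap from female thorax by -0.98 (p = 0.0857). The cause was not tested. Male and female thorax, whose gap did not pass, changed sign in the share with a scaled log2 of 7 in place of the call (-0.55, chosen after seeing the data), and in the median with normexp (-0.60), quantile normalization (-0.064) and slide A alone (-0.12). With each array left out these gaps were -0.12 to 1.18 points and -0.025 to 0.157 log2 units.

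With the scanner's positive and significant call, 46.4% of cDNA/EST probes were detected on all 4 testis arrays, 65.3% on male and 60.0% on female thorax arrays. With 1 array left out the shares were 30.7% to 42.9%, 49.9% to 51.7% and 44.8% to 50.1%. Without testis replicate 1 the testis share was 93.5% for AT, 66.2% for BT, 37.1% for TC and 58.6% for GH names. A share detected on all of fewer arrays can only stay or rise. Probes on all testis and no thorax arrays numbered 488 to 537 with either array that stood apart left out, alternatives chosen after seeing the data. This count can only stay or grow when an array is left out. Probes on all thorax and some testis arrays numbered 674 to 1674.

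Of the 2499 cDNA/EST probes on all 12 arrays, 1988 (79.6%, against 78.1% of all probes) were called between testis and male thorax and 1995 (79.8%, against 77.9%) between testis and female thorax, where the main shares were 79.8% and 80.1%. With no filter, 8691 of 11589 were called for testis against female thorax, 1512 higher and 7179 lower. All 32162 probes gave 7176 and 16436. Between the thoraxes there were 27 of 2499 on all 12 arrays, 8 higher and 19 lower, against 20 and 52 of all 12986. A fit of the 8 thorax arrays gave 95 of 6840, 37 higher and 58 lower, against 126 and 168 of all 24878. With array weights 531 were called, and 30 to 296 with each array left out. The lowest of these, without female thorax replicate 3, held 10 higher and 20 lower, against 28 and 71 of all 24878. The 30 differences by which probes were named kept their direction in 664 refits, of which 5 lost the call. They were chosen as the largest in the same data, so the kept directions are no test of them. Only 4 of the 30 could be refitted on the probes detected on all 12 arrays. The deposited tissue table gave no value, since it held none of these probes. No paired analysis was possible because the arrays carry no replicate numbers. The arrays' detection limit and their number set what can be seen.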
